A study of Mus musculus with 3 samples.

Results

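The metallothioneins Mt1 and Mt2 and the heat shock genes Hspa1a, Hspa1b, Dnajb1, Hsph1, Hspb1 and Hspa8 were followed in sorted mesoderm lineage cells of mouse embryos. By design the controls kept an intact copy of Wls, a gene needed to secrete Wnt ligands, in that lineage, and the mutants did not. The 8 genes followed, of 51923 in the count matrix, were taken by symbol. They were selected on earlier results of the same cells: Hspa1a and Hspa1b on the difference between genotypes at E9.5 and on its change from E8.0, and Mt1 on the difference between stages. For those comparisons the values below are therefore descriptions without a test. The genotype difference at E8.0 is part of that change and is described in the same way. The difference between sequencing runs at E9.5 and the difference between cell classes in controls were not used in the choice and were tested.

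All embryos were C57BL/6 and carried Mesp1-Cre, which acts in the first mesoderm of the gastrulating embryo, and Ai9, a Cre-dependent red fluorescent reporter, so that controls also carried the Cre. Controls were Wls fl/+ and mutants Wls fl/fl. Wls encodes the carrier that takes Wnt proteins to the cell surface, and Cre deletes it in the Mesp1 lineage, leaving other embryonic cells able to secrete Wnt. Red cells were sorted, so cells without the reporter were meant to be left out. By marker genes the measured cells still held 210 neural cells and 104 endoderm or epithelium cells. Whether these are of the lineage was not tested, and they are part of the whole samples. Each sample was tagged with a MULTI-seq lipid barcode before pooling, and the cells of a barcode were summed to 1 barcode sample. At E8.0 there were 3 controls (1549 cells) and 3 mutants (1653 cells), all in run 1. At E8.5 there were 2 controls (2542 cells) and 1 mutant (487 cells), in run 2. At E9.5 there were 6 controls (5733 cells) and 6 mutants (2785 cells) over 3 runs. Bar18, a control from E7.5 by its label, had 28 cells. Whether a barcode stands for 1 embryo is not stated, so p-values measure the spread between barcode samples.

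Metallothioneins are small cysteine-rich proteins that bind zinc and copper. Their genes are switched on by the metal-sensing factor MTF1, and also by glucocorticoids, oxidative stress and low oxygen. Heat shock proteins are chaperones: HSP70 proteins (Hspa1a, Hspa1b, Hspa8) hold unfolded chains, HSP40 proteins such as Dnajb1 deliver them and stimulate the HSP70 ATPase, Hsph1 is the nucleotide exchange factor that releases them, and the small protein Hspb1 keeps them from clumping. Hspa1a and Hspa1b are the stress-induced HSP70 genes, driven by heat shock factor 1, while Hspa8 is the HSP70 that cells make at all times. In the embryo, metallothionein RNA is known from the yolk sac and liver, and Hspb1 from the early heart. Stress genes of both kinds also respond to handling and dissociation of tissue.

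The RefSeq promoter windows of the 4 genes whose levels set the samples apart were searched for short patterns of letters. The patterns were the core of the metal response element and pairs and runs of heat shock units. Whether the matches act as sites of induction was not tested. Each window has 250 bases before the annotated start and the first 30 bases from it on, 5′ to 3′, in build GRCm38.p6. In the metallothionein windows the capitals mark the core of the metal response element, TGCACNC or TGCGCNC on either strand. Mt1 lies at chr8:94178839-94179118 on the plus strand and Mt2 at chr8:94172368-94172647 on the plus strand.
Mt1: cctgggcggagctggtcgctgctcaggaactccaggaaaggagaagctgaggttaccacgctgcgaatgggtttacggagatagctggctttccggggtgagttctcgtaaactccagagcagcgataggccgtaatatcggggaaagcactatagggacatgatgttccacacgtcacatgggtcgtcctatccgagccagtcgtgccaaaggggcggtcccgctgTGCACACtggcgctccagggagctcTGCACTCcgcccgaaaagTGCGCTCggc
Mt2: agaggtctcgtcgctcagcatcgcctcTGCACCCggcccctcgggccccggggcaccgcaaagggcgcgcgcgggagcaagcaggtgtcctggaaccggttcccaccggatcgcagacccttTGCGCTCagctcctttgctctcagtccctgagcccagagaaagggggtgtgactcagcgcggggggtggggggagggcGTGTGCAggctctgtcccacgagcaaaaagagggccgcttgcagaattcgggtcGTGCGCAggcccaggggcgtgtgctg

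The Mt1 window held 3 metal response cores, at -23, 2 and 20 from the annotated start at 0, and the Mt2 window 4, at -223, -128, -50 and 4. GENCODE also lists Mt1 transcripts that begin further in, at 94179211 and 94179241 on chromosome 8. Its Mt2 transcripts begin at 94172664 and 94172860, both past the end of the printed Mt2 window at 94172647. The Mt2 offsets are therefore counted from a RefSeq start that lies before every GENCODE start of the gene. At least 1 core was found in 24.1% and 3 or more in 1.73% of 32851 RefSeq promoters of the same length. In the HSP70 windows the capitals mark a pair of heat shock units, GAANNTTC or TTCNNGAA, each of which reads the same on both strands. Hspa1a lies at chr17:34972127-34972406 and Hspa1b at chr17:34959209-34959488, both on the minus strand.
Hspa1a: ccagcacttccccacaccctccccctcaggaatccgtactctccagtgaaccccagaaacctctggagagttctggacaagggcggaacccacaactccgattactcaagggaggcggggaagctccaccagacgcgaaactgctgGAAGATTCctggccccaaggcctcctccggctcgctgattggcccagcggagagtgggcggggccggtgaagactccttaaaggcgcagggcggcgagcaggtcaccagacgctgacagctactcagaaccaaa
Hspa1b: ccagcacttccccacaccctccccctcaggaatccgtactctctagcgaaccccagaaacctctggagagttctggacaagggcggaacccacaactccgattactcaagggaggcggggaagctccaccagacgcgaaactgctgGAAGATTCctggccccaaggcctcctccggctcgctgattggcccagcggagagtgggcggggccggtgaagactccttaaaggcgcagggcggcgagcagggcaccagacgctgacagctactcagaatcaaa

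Each HSP70 window held 1 such pair, GAAGATTC, at -104, and no run of 3 units (GAANNTTCNNGAA or TTCNNGAANNTTC). The windows of Hspa1a and Hspa1b had 276 of 280 bases in common, and the differences, counted from 1 at the 5′ end with the Hspa1a base first, were C44T, T47C, T249G and C276T. A pair of units was found in 14.2% and a run of 3 in 0.563% of the promoters. Among the other members, 1 of the Hsph1 windows held a run of 3 units, TTCTGGAAAGTTC, which also counts as 2 overlapping pairs, and the Hspb1 window held 2 pairs. A match describes letters in a window, not a bound site. The names of Hspa1a and Hspa1b could be told apart in these libraries: of the 31-base words of the Hspa1a transcript 63.8% occur in Hspa1b, but 0% of those in the last 500 bases, where this kit primes. For Hspa8, 85.3% of the words in the last 500 bases occur in other genes (82.3% in Gm15459), and for Hspb1 27% occur in Hsp25-ps1, so the counts of these genes depend on how the authors assigned shared reads. Mt1 and Mt2 had no word in common.

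Barcode samples held from 134457 to 61307782 UMIs, unique molecules counted once. Levels are given as CPM, the UMIs of a gene after scaling the UMIs of the summed cells to a fixed total, so in whole samples fewer cells of a type and less RNA per cell cannot be told apart. Counts come from the 3′ end and are not scaled by length, so levels are compared between samples and not between genes. Wls was 35.9 to 46.1 CPM in the E9.5 controls and 8.54 to 12.1 CPM in the mutants. At E8.0 it was 54.1 to 65.4 and 7.25 to 14.2 CPM, and at E8.5 it was 39.1 and 59.6 CPM in the controls and 3.72 CPM in the mutant. The library labelled E7.5 control had 14.1 CPM of Wls, from 7 UMIs (exact Poisson 95% interval 5.67 to 29.0 CPM), within the range of the E8.0 mutants and below every other control. Of its 28 cells 67.9% were positive for blood markers. Without such cells it had 28.5 CPM of Wls, against 7.49 to 16.6 CPM in the E8.0 mutants. That value rests on at most these 7 UMIs and does not settle the label. This library enters no comparison. The 23 cell sequences found in over 1 run, of 14754, were kept. Cell classes were set by marker genes, each cell needing UMIs of most markers of 1 list and not of most markers of any other. By this rule 2174 cells were erythroid, and 5644 cells were positive for no class. Blood-positive cells, with erythroid or with megakaryocyte and myeloid markers, made up 8.33% to 39.0% of the E9.5 samples. The E9.5 control Bar6 had only 6 cells, 2 of them blood-positive, and the mutant Bar5 57 cells, 31.6% of them blood-positive. Where leaving out either changed a value or a call of a member by much, the value without it is given.

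Mt1 was higher in most E9.5 mutants than in the controls with at least 20 cells. The E9.5 controls held 166 CPM (Bar22), 68.0 CPM (Bar23), 50.5 CPM (Bar4), 75.0 CPM (Bar7) and 76.0 CPM (Bar9), and the 6-cell control Bar6 1792 CPM. The mutants held 1054 CPM (Bar19), 537 CPM (Bar20), 1403 CPM (Bar21), 6163 CPM (Bar5), 438 CPM (Bar10) and 115 CPM (Bar8). Among the mutants 5 lay above every control of at least 20 cells, and Bar8 lay below control Bar22. The means were 87.1 ± 45.3 CPM (SD, n = 5) in those controls and 1618 ± 2273 CPM (SD, n = 6) in the mutants, or 709 ± 514 CPM (SD, n = 5) without the 57-cell Bar5. At E8.0 Mt1 was 53.6, 82.2 and 148 CPM in the controls and 47.6, 55.3 and 56.0 CPM in the mutants, with overlapping ranges. At E8.5 it was 39.1 CPM (Bar3) and 123 CPM (Bar2, 34 cells) in the controls and 113 CPM in the mutant. Without blood-positive cells these were 8.51, 144 and 48.9 CPM. Only Bar3 and the mutant had class sums, and Mt1 was higher in the mutant in each class both held. It was 455 against 136 CPM in erythroid cells, 71.0 against 21.8 CPM in cardiomyocytes and 41.8 against 6.37 CPM in paraxial cells. With 1 sample on each side this was not tested.

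Mt2, the neighbouring metallothionein gene, put the 6 E9.5 mutants in the same order as Mt1. Its controls of at least 20 cells ranged from 9.26 to 44.5 CPM with a mean of 19.6 ± 14.2 CPM (SD, n = 5). Its mutants ranged from 16.5 CPM (Bar8) over a median of 170 CPM to 834 CPM (Bar5), with a mean of 262 ± 297 CPM (SD, n = 6), or 148 ± 110 CPM (SD, n = 5) without Bar5. In the E8.0 samples Mt2 was 6.57 to 36.2 CPM in controls and 8.85 to 10.1 CPM in mutants. Over the 19 barcode samples of at least 50 cells the log2 levels of Mt1 and Mt2 had a Pearson correlation of 0.99, a description across samples that share runs and stages.

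Hspa1a, a stress-induced HSP70, was low in every control of at least 20 cells and in every E8.0 sample. Its E9.5 controls held 1.47 CPM (Bar22), 1.14 CPM (Bar23), 0.549 CPM (Bar4), 1.26 CPM (Bar7) and 1.49 CPM (Bar9). Control Bar6 held 22.3 CPM, from 3 UMIs (exact Poisson 95% interval 4.6 to 65.2 CPM, counting error only). Its E9.5 mutants held 69.3 CPM (Bar19), 56.8 CPM (Bar21), 62.5 CPM (Bar5), 12.4 CPM (Bar10), 7.85 CPM (Bar20) and 3.20 CPM (Bar8). All 6 mutants lay above the 5 larger controls, and 3 of them stood well above the other 3. At E8.0 the controls held 1.34 to 1.80 CPM and the mutants 0.943 to 1.32 CPM.

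Hspa1b, its near-identical copy, followed it sample by sample. Its E9.5 mutants held 64.0 CPM (Bar19), 55.0 CPM (Bar5), 43.0 CPM (Bar21), 13.4 CPM (Bar10), 5.76 CPM (Bar20) and 4.27 CPM (Bar8). The controls of at least 20 cells held 1.17 to 2.48 CPM, all below the mutants, and Bar6 had no Hspa1b UMI. The correlation of Hspa1a with Hspa1b over the 19 samples was 0.99, and that of Hspa1a with Mt1 was 0.93.

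The 3 mutants with the most Hspa1a, Bar19, Bar21 and Bar5, differed from the other 3 in further measures, which was noticed after their values were seen. Their Xist, the RNA of the inactive X chromosome of female cells, was 8.82, 6.97 and 1.08 CPM, against 146 CPM in Bar20, 173 CPM in Bar10 and 160 CPM in Bar8. Their blood-positive share was 22.0%, 18.8% and 31.6%, against 12.1%, 12.1% and 8.33%. Among the controls Bar7 also had low Xist (7.54 CPM) and the highest blood-positive share (39.0%), with 1.26 CPM of Hspa1a, and the 6-cell Bar6 had no Xist UMI and 33.3% blood-positive cells, with 22.3 CPM of Hspa1a from 3 UMIs. The part of sex and of blood cells in the difference among mutants was not tested on whole samples. Without blood-positive cells Hspa1a was 3.84 CPM in Bar19, 4.85 CPM in Bar21 and 2.06 CPM in Bar5. It was then 1.86 CPM in Bar20, 2.02 CPM in Bar10 and 3.69 CPM in Bar8, so the ranges overlapped. Group values without blood-positive cells are given below.

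Among the partner chaperones, the HSP40 gene Dnajb1 overlapped between the genotypes at every stage with replicates. At E9.5 it was 39.4 to 48.7 CPM in the controls of at least 20 cells and 43.3 to 64.6 CPM in the mutants. Hsph1, the exchange factor, was 78.3 to 146 CPM (mean 114 ± 30.4, SD, n = 5) in those controls and 33.4 to 127 CPM (mean 84.5 ± 30.4, SD, n = 6) in the mutants. The ranges of Hsph1 overlapped. At E8.0 Hsph1 was 166 to 218 CPM, above every E9.5 sample.

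The small heat shock gene Hspb1 was higher in run 3 in both genotypes. At E9.5 it was 44.4 and 39.1 CPM in the run 1 controls, 41.2 CPM in Bar4 of run 2, and 199 and 112 CPM in the run 3 controls. The mutants held 49.1 to 66.1 CPM in run 1, 45.3 CPM in run 2, and 142 and 241 CPM in run 3. In run 3 all 4 samples lay above every E9.5 sample of runs 1 and 2. Cardiomyocyte-marker cells, the class with the highest Hspb1 level, made up 6.17% to 14.3% of the run 3 samples, 2.19% to 5.69% of those of run 1, and 4.44% (Bar4) and 3.51% (Bar5) in run 2. Hspa8, the constitutive HSP70, was 272 to 495 CPM in the E9.5 controls of at least 20 cells and 217 to 344 CPM in the mutants, with overlapping ranges.

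**Figure D1:**
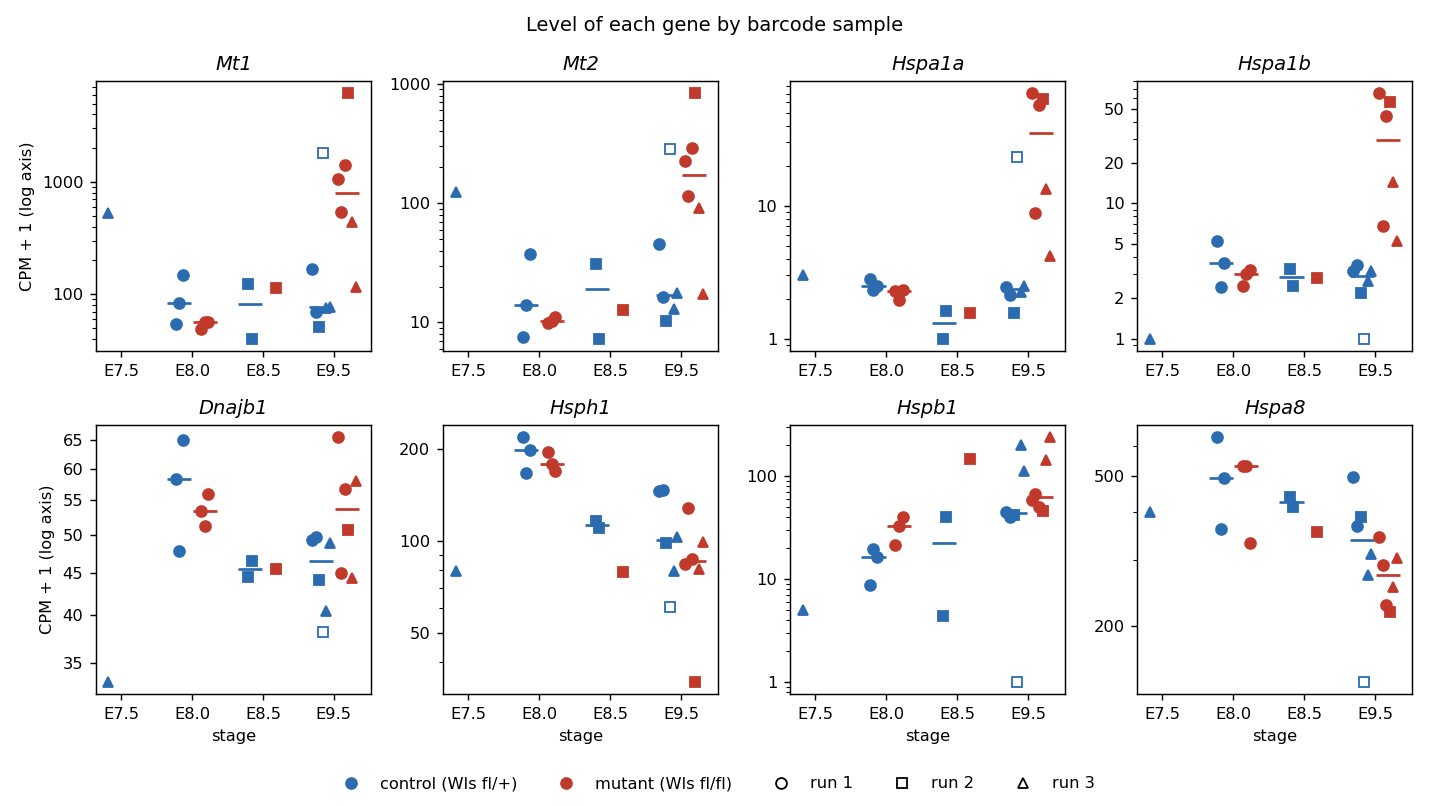
CPM + 1 on a log axis for each gene (panels) by stage (x axis), with 1 symbol for each barcode sample, blue for control and red for mutant, the shape giving the run, the short lines the group medians (Bar6 included), and the open symbol the 6-cell control Bar6. Mt1, Mt2, Hspa1a and Hspa1b are spread upward in the E9.5 mutants, with Hspa1a from 3.20 to 69.3 CPM, while Dnajb1 and Hspa8 overlap between the genotypes.

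At E8.0 Hspb1 was higher in all 3 mutants than in the 3 controls, and the ranges of most members overlapped. Hspa1a was lower in the mutants, by a narrow margin, at 0.943 to 1.32 against 1.34 to 1.80 CPM. How many of all genes have separate ranges was not counted, so nothing is read from these separations. In edgeR's quasi-likelihood test, adjusted over all 16416 genes by the Benjamini-Hochberg method with a threshold of 0.05, 0 of 8 members were called, beside 4 genes in all (0.0244%). Since these values are part of a comparison that chose members, nothing is read from that count. DESeq2 also called 0 members, beside 45 genes in all. At an unadjusted p below the threshold 1615 genes lay past it, among them Mt1 and Hspb1. Mt1 was lower in mutants by a log2 value of -0.90 (SE 0.30), and Hspb1 higher by 1.03 (SE 0.31), at 7.82, 18.5 and 15.4 CPM in controls and 20.6, 31.6 and 38.9 CPM in mutants. Cardiomyocyte-marker cells made up 4.23% to 8.45% of these controls and 6.70% to 10.2% of these mutants, and within them Hspb1 was 158 and 398 CPM in 2 controls and 182 to 457 CPM in the mutants, with overlapping ranges. The other 6 members had log2 differences from -1.05 (Mt2, SE 0.50) to -0.17 (Dnajb1 and Hspa8, SE 0.10 and 0.24). Xist was 66.1 to 126 CPM in the E8.0 controls and 4.67 to 7.60 CPM in the mutants, so sex and genotype cannot be told apart at this stage. Blood-positive cells made up 8.80% to 30.9% of the controls and 3.04% to 12.5% of the mutants, whose part in these differences was not tested beyond the fit without them, which also called 0 members.

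At E9.5, with run as a term, the fitted log2 difference of mutants from controls was 2.70 for Mt1 (SE 0.62) and 2.82 for Mt2 (SE 0.62). It was 4.83 for Hspa1a (SE 0.68) and 3.89 for Hspa1b (SE 0.61). These 4 lay past the threshold on the higher side, where 5.71% of 17227 genes lay, and Hsph1 (-0.52, SE 0.15) on the lower side, where 4.55% lay. Since the members were chosen by this comparison, nothing is read from that count. The remaining values were 0.16 for Dnajb1 (SE 0.12), 0.32 for Hspb1 (SE 0.21) and -0.41 for Hspa8 (SE 0.18).

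Fitted in each run alone, Mt1 differed by 3.15 in run 1, 3.13 in run 2 and 1.70 in run 3, and Hspa1b by 4.07, 5.91 and 2.05. Run 2 has only the 57-cell mutant and 2 controls, of which 1 has 6 cells, and Hspa1a was too low for a fit in run 3, where it was 12.4 and 3.20 CPM in mutants and 1.26 and 1.49 CPM in controls. Whether the difference changes between runs was not tested. Leaving out 1 sample gave between 2 members past the threshold (without Bar23) and 6 (without Bar6). All genes past it numbered 603 of 17994 without Bar23, 2121 of 18058 without Bar6 and 1219 of 17855 without Bar5. With every sample they numbered 1766 of 17227. Without Bar23, Mt1 (2.42), Mt2 (2.51) and Hsph1 (-0.53) no longer lay past it, and without Bar5, Mt1 (2.51) and Hsph1 (-0.41) did not, which left 3. Without Bar6 the differences were 3.15 for Mt1, 4.87 for Hspa1a and -0.49 for Hspa8.

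The mean levels of Mt1, Mt2, Hspa1a and Hspa1b in E9.5 mutants were lower with blood-positive cells left out, and still above those of controls. These 4 still lay past the threshold, where 2575 of 16331 genes lay in either direction. Leaving those cells out raised Bar8 instead, for Hspa1a from 3.20 to 3.69 CPM and for Hspa1b from 4.27 to 4.92 CPM. Without these cells Hspa1a was 1.09 ± 0.754 CPM (SD, n = 5) in controls of at least 20 cells and 3.05 ± 1.24 CPM (SD, n = 6) in mutants, and the fitted log2 difference went from 4.83 to 1.23. That of Hspa1b went from 3.89 to 0.84. For Mt1 the levels without blood-positive cells were 33.9 ± 20.2 CPM (SD, n = 5) and 161 ± 62.0 CPM (SD, n = 6), with a log2 difference of 2.48, and for Mt2 it was 2.27. With blood-positive cells left out every mutant had more Mt1, at 88.6 to 257 CPM, than any of those controls, at 12.2 to 66.2 CPM. The ranges of Hspa1a, 0 to 1.93 and 1.86 to 4.85 CPM, overlapped. The difference of Dnajb1 changed sign, from 0.16 to -0.17.

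Between stages within run 1, with genotype as a term, Mt1, Mt2, Hspa1a and Hspb1 were higher at E9.5, by 2.74 (SE 0.81), 2.92 (SE 0.81), 3.26 (SE 1.03) and 1.22 (SE 0.20) on the log2 scale. Hsph1 was lower, at -0.65 (SE 0.12). This fit averages the genotypes. In the run 1 controls Hspa1a was 1.34 to 1.80 CPM at E8.0 and 1.47 and 1.14 CPM at E9.5, and Mt1 was 53.6 to 148 and 166 and 68.0 CPM. The higher E9.5 levels were those of the mutants, at 7.85 to 69.3 CPM of Hspa1a and 537 to 1403 CPM of Mt1. These 4 members lay past the threshold on the higher side, where 14.7% of 17577 genes lay, and 1 on the lower side, where 15.0% lay, a comparison that chose members. The number past the threshold fell to 2 when E8.0 mutant Bar25 or Bar27 was left out and to 3 without Bar28. All genes past it then numbered 4177, 4496 and 4607, against 5222 with every sample. Over all runs, with run as a term, Mt1 differed by 2.22 and no longer lay past the threshold. Without blood-positive cells 3 members lay past it, beside 5401 of 17021 genes. There the stage difference of Mt1 was 0.75, that of Mt2 0.68 and that of Hspa1a 0.83, while that of Dnajb1 went from -0.04 to -0.34.

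The change of the genotype difference from E8.0 to E9.5 was 5.24 for Hspa1a (SE 1.13), 4.41 for Hspa1b (SE 0.98), 3.91 for Mt2 (SE 1.01) and 3.62 for Mt1 (SE 0.96). Of these only Hspa1a lay past the threshold, on the side where 0.425% of 17872 genes lay, and this comparison too chose it. The count was 0 when any of 12 samples was left out in turn, 2 without Bar20, Bar8 or Bar9, 3 with DESeq2 and 5 without a filter on low counts. All genes past the threshold numbered 29 (without Bar25) to 137 (without Bar20) with 1 sample left out. They numbered 395 with DESeq2 and 669 without a filter. Without blood-positive cells 2 members passed, beside 169 of 17111 genes. These were Mt1 (3.33) and Mt2 (3.53), while Hspa1a changed by 1.38.

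Sequencing run was tested at E9.5, where every run held both genotypes. In edgeR, 3 of 8 members differed between runs, beside 19.2% of 17227 genes. Hspb1 was higher in run 3 than in run 1 by 1.98 on the log2 scale (edgeR adjusted p = 1.02e-04). The cardiomyocyte share was also higher in run 3, at 6.17% to 14.3% against 2.19% to 5.69%, while the Hspb1 level within cardiomyocytes at E9.5 was 1022 to 1641 CPM over all runs. The part of the share in the run difference was not tested. Mt1 was higher in run 2 by 2.84 and lower in run 3 by -1.06 (edgeR adjusted p = 0.00622), and Mt2 by 1.79 and -1.29 (edgeR adjusted p = 0.0465). Mt1 did not pass without Bar5 (adjusted p = 0.0676), without Bar6 (0.0618) or without blood-positive cells (0.0525), and Mt2 did not pass with relative log expression factors (0.0514) or without any single sample other than Bar4. Only Hspb1 passed without Bar5 and without Bar6, and it also passed without blood-positive cells (edgeR adjusted p = 1.56e-04). All genes that passed in these fits numbered 3206 of 17855, 3744 of 18058 and 3259 of 16331. Of the immediate early and dissociation genes, which rise in cells within minutes of stress, 9 of 15 differed between runs, among them Fos (2.26 higher in run 3 than in run 1), Fosb (2.05), Klf2 (1.72) and Egr1 (1.43).

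The comparison of cell classes asked where the members are expressed in controls. It used 58 class sums of at least 20 cells, of 9 classes in 9 control samples, with the sample as a block. All 6 members with enough counts differed between classes in edgeR, as did 89.4% of 12247 genes, and Hspa1a and Hspa1b were too low for the filter. The smallest adjusted p was 2.16e-43 (Hspb1) and the largest 1.07e-04 (Dnajb1).

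Hspb1 was highest in cardiomyocytes. It was 1065 ± 554 CPM (SD, n = 8, 158 to 1641 CPM) in cardiomyocyte-marker cells, and the next class, allantois or trunk lateral plate, had 31.6 ± 35.7 CPM (SD, n = 4, 5.25 to 83.7 CPM). The ranges of these 2 classes did not overlap. The remaining classes followed from 15.0 CPM (anterior second heart field or pharyngeal) down to 1.27 CPM (erythroid), each overlapping its neighbour. In the E9.5 samples the cardiomyocyte level was 1022 to 1641 CPM in controls and 1034 to 1477 CPM in mutants.

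Mt1 had its highest mean over all stages in erythroid-marker cells of controls, at 272 ± 347 CPM (SD, n = 9) with a median of 136 CPM and a range of 71.3 to 1170 CPM. Paraxial cells came next in the mean, at 62.6 ± 126 CPM (SD, n = 7), with a median of 18.9 CPM and a range that overlapped, because 1 E8.0 sample, Bar29, held 348 CPM. The other classes had means from 55.4 CPM (cranial mesoderm) to 11.4 CPM (allantois or trunk lateral plate), each overlapping its neighbour. Mt2 had its highest mean over all stages in erythroid cells, at 61.2 ± 101 CPM (SD, n = 9) with a median of 24.3 CPM, in a range that overlapped that of paraxial cells. Without Bar22 the erythroid means were 28.3 ± 23.3 CPM (SD, n = 8) for Mt2 and 159 ± 86.8 CPM (SD, n = 8) for Mt1. In the E8.0 controls erythroid cells did not have the highest mean. Their Mt1 mean was 138 CPM (n = 3) and their Mt2 mean 15.4 CPM, against 184 and 64.8 CPM in paraxial cells (n = 2). The paraxial means rest on unlike samples, with 19.9 and 348 CPM of Mt1 and 3.55 and 126 CPM of Mt2. The erythroid sums held 129 to 151 CPM of Mt1 and 10.4 to 24.7 CPM of Mt2, so the order depends on the high paraxial sample. At E9.5 the erythroid range lay above that of every other class for both genes. Without the erythroid class neither gene differed between classes (edgeR adjusted p = 0.209 for Mt1 and 0.107 for Mt2), while the other 4 members still did.

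The widely expressed chaperones varied less between classes. Hspa8 went from 296 ± 49.2 CPM (SD, n = 8) in cardiomyocytes to 498 ± 126 CPM (SD, n = 4) in allantois or trunk lateral plate, and Hsph1 from 84.3 ± 24.4 CPM to 194 ± 72.8 CPM in the same classes. Dnajb1 went from 37.1 ± 9.0 CPM (SD, n = 9) in erythroid cells to 63.5 ± 7.46 CPM (SD, n = 4) in allantois or trunk lateral plate. In the order of the classes each of these overlapped its neighbour. The means pool the stages, and the order changed with stage. Erythroid cells of controls had the highest Hspa8 mean of any class at E8.0 (644 CPM, n = 3) and the lowest at E9.5 (276 CPM, n = 5). Hspa1a had means of 3.28 CPM or less in every class and Hspa1b of 4.09 CPM or less, with overlapping ranges.

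Erythroid cells spend much of their RNA on globin, so the difference of a gene from the other classes depends on the scaling. The median difference of all genes between erythroid and the other classes in controls was -0.01 with TMM factors, -0.18 with relative log expression and -0.90 with library size alone. Mt1 was higher in erythroid cells by 4.57, 4.41 and 3.54 under these scalings, and Mt2 by 4.99, 4.84 and 3.96. Hspb1 was lower under each, at -2.72, -2.89 and -3.80. Dnajb1, Hsph1 and Hspa8 were higher with TMM (0.38, 0.57 and 0.77) and lower with library size alone (-0.53, -0.26 and -0.09), but relative to the median gene they were higher under all 3 scalings, by 0.37 to 0.81.

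**Figure D2:**
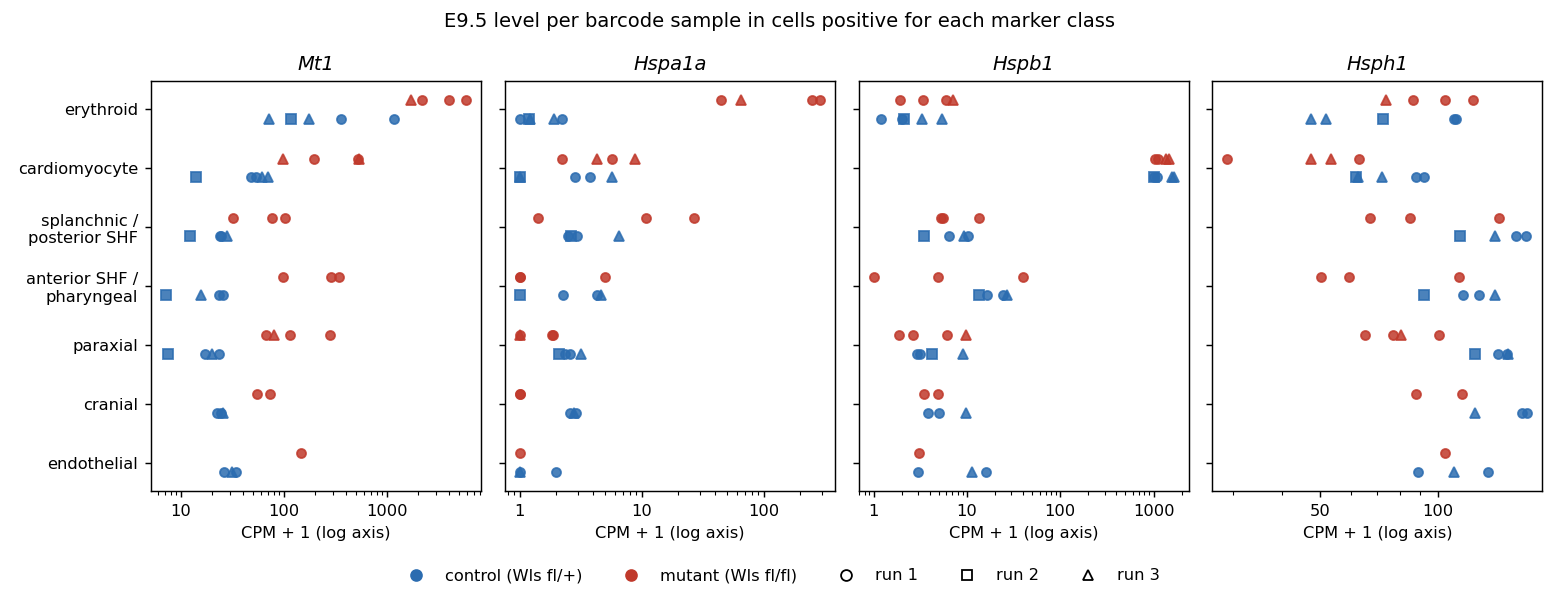
CPM + 1 on a log axis for 4 members in E9.5 cells positive for each marker class (SHF, second heart field), with 1 symbol for each barcode sample of at least 20 such cells, blue for control and red for mutant, the shape giving the run. The Mt1 ranges of the genotypes do not overlap in any class shown, Hspa1a is raised in erythroid cells of all 4 mutants (43.7 to 288 CPM), and Hspb1 is highest in cardiomyocytes in both genotypes, at 1022 CPM or more.

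Within classes the genotype difference at E9.5 is again a description. Mt1 was higher in mutants in each of the 5 classes with at least 3 samples of each genotype: by 2.97 in erythroid cells (SE 0.39), 2.65 in cardiomyocytes (SE 0.34), 1.52 in splanchnic or posterior second heart field (SE 0.39), 3.43 in anterior second heart field or pharyngeal (SE 0.42) and 2.88 in paraxial cells (SE 0.40). Mt2 was higher by 0.62 to 3.23, least in the splanchnic class. The 29 non-erythroid class sums of E9.5 controls had Mt1 levels of 6.18 to 69.0 CPM (median 23.7 CPM), and the 18 of mutants 31.4 to 532 CPM (median 107 CPM), several sums coming from each sample.

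The highest Hspa1a levels of any class were in mutant erythroid cells. In these the control Hspa1a level was 1.24 CPM (Bar23), 0.892 CPM (Bar7), 0.207 CPM (Bar9) and 0.187 CPM (Bar4), each from 6 UMIs or fewer. In Bar22 it was 0, where a count of 0 allows up to 0.746 CPM by the exact Poisson 95% interval. In mutants it was 288 CPM (Bar19), 248 CPM (Bar21), 64.7 CPM (Bar10) and 43.7 CPM (Bar20). All 4 mutants lay above all 5 controls, and Bar19 and Bar21 above the other 2. Hspa1b was 260, 180, 66.7 and 19.1 CPM in these mutants and at most 4.13 CPM in the controls. Bar5 and Bar8 had fewer than 20 such cells and gave no value.

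The fitted log2 difference in erythroid cells was 8.26 for Hspa1a (SE 0.80) and 6.19 for Hspa1b (SE 0.78), values that depend on the prior count because the control levels are near 0. Of the other classes only the splanchnic one had enough counts for a fit, with 2.51 for Hspa1a (SE 1.07) and 2.06 for Hspa1b (SE 0.73). There Bar21 held 25.8 CPM and Bar19 9.76 CPM of Hspa1a, from 25 and 13 UMIs, while Bar20 held 0.424 CPM, below the controls at 1.5 to 5.46 CPM. The 18 non-erythroid class sums of mutants held 50 Hspa1a UMIs in all, with a median of 0.623 CPM and a mean of 3.26 ± 6.33 CPM (SD over sums). The 29 of controls held 75, with a median of 1.57 CPM and a mean of 1.61 ± 1.38 CPM, so median and mean differed in direction.

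Dnajb1 was higher in mutant erythroid cells by 1.45 (SE 0.26), at 54.2 to 134 CPM against 24.5 to 40.7 CPM in controls, and its differences in the other 4 classes were -0.30 to -0.05. Hsph1 differed by 0.21 in erythroid cells (SE 0.14) and by -0.88 (paraxial, SE 0.12) to -0.67 (splanchnic, SE 0.25) elsewhere. Hspa8 differed by -0.12 in erythroid and -0.73 in paraxial cells. Hspb1 in cardiomyocytes, the class with its highest level, differed by -0.04 (SE 0.10), and in erythroid cells by 1.88 (SE 0.66) at levels of 6.06 CPM or less. The median difference of all genes was between -0.00 and 0.01 in these fits. Whether a difference changes between classes was not tested.

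**Figure D3:**
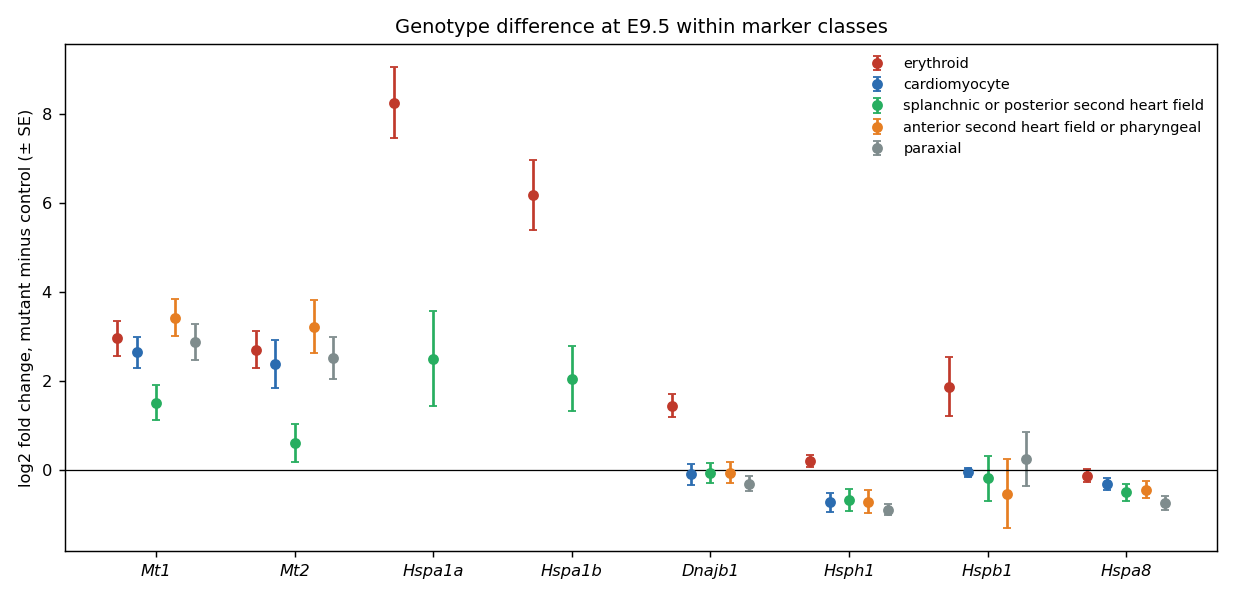
Log2 fold change of E9.5 mutants over controls (y axis, points, with bars of 1 SE) for each member (x axis) in 5 marker classes (colours), fitted in each class with run as a term, with no point where counts were too low. Mt1 is above 0 in all 5 classes, Hspa1a reaches 8.26 in erythroid cells, and Hsph1 is below 0 in the 4 classes other than erythroid.

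The stress HSP70 RNA was held by part of the erythroid cells. An Hspa1a UMI was found in 46.3% of the erythroid-marker cells of mutant Bar19, 38.7% of Bar21, 15.2% of Bar10 and 10.7% of Bar20, and in at most 3.42% in any control. After thinning each cell to 5000 UMIs the mutant shares were 33.1%, 30.6%, 12.9% and 4.00%. In mutant cells that were not blood-positive the share was 2.77% ± 0.848 (SD, n = 6), and in such control cells 1.82% ± 1.24 (SD, n = 5). These shares serve as a background for the erythroid ones, although such cells can still hold UMIs of some blood markers. Erythroid cells had median depths of 16006 to 29337 UMIs in the 4 mutants and 17685 to 33077 in the controls. The most Hspa1a UMIs in 1 cell were 102 in Bar19, 154 in Bar21, 44 in Bar20 and 19 in Bar10, and at most 2 in any control cell. All cells of these mutants held 1155, 798, 120 and 37 Hspa1a UMIs, so the levels of Bar20 and Bar10 rest on few cells. In Bar19 71.3% of the erythroid Hspa1a UMIs lay in the 10% of cells with most of them, and in Bar21 71.7%.

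Mt1, by contrast, was found in most erythroid cells: in 89.1% ± 8.02 (SD, n = 4) in mutants and 67.7% ± 19.0 (SD, n = 5) in controls, or 74.6% and 42.5% after thinning. In E9.5 cells that were not blood-positive the share of cells with an Mt1 UMI was 49.7% ± 10.1 (SD, n = 6) in mutants and 31.3% ± 9.80 (SD, n = 5) in controls. After thinning it was 29.6% and 11.8%. No class without Mt1 was found to set a background share. Erythroid cells of the same mutants held 1728 to 5878 CPM of Mt1, and the part of free RNA from them in the Mt1 of other cells, here and in the levels by class, was not tested. Over all cells the shares were 56.2% ± 11.3 (SD, n = 6) and 37.1% ± 6.35 (SD, n = 5). For Mt2 they were 25.2% ± 9.79 and 12.4% ± 2.86.

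Erythroid cells that held Hspa1a held more of its partners and less metallothionein. This was seen in the 2 mutants with at least 20 cells on both sides. In Bar19 the 81 cells with an Hspa1a UMI had 534 CPM of Hspa1b against 14.8 CPM in the 94 without. They had 215 against 61.3 CPM of Dnajb1, 115 against 58.8 CPM of Hsph1 and 305 against 276 CPM of Hspa8. Their Mt1 was 2514 against 5356 CPM and their Mt2 563 against 1197 CPM.

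Bar21, with 48 cells on the one side and 76 on the other, gave 444 against 7.19 CPM of Hspa1b, 191 against 44.3 CPM of Dnajb1 and 167 against 91.9 CPM of Hsph1. Its Mt1 was 3737 against 7283 CPM. The cells with Hspa1a were close in depth to those without, with medians of 23717 and 21614 UMIs in Bar19 and 23909 and 22314 in Bar21. Across the erythroid cells of a sample the Spearman correlation of Hspa1a with Hspa1b was 0.80 in Bar19 (175 cells) and 0.81 in Bar21 (124 cells). With Mt1 it was -0.19 and -0.23, while Mt1 and Mt2 correlated at 0.95 and 0.96. Cells of a sample share its library and are no replicates, and these correlations describe 2 samples.

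**Figure D4:**
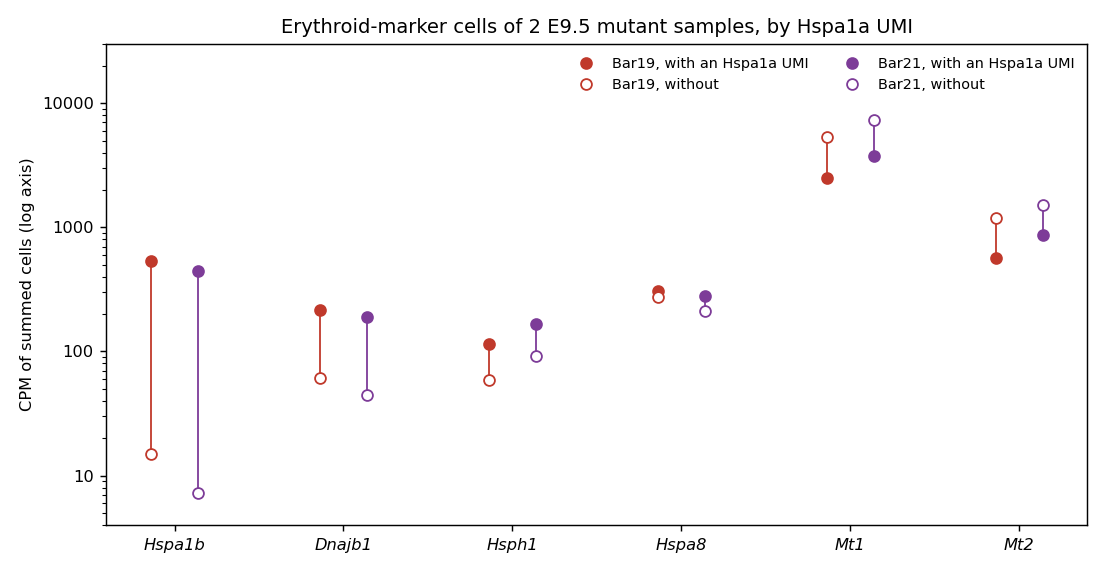
CPM on a log axis (y axis) of 6 members (x axis) in the summed erythroid-marker cells with an Hspa1a UMI (filled) and without (open), joined by a line, for mutants Bar19 (red) and Bar21 (purple). Hspa1b, Dnajb1 and Hsph1 are higher in the filled symbols of both samples, and Mt1 and Mt2 lower.

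The wider stress and metal pathways at E9.5 were counted over lists chosen with earlier results of these cells known. The median log2 difference of all genes was 0.02, and 5.71% of genes were called higher and 4.55% lower. Of 16 measured metal handling genes, 0 rose and 1 fell: Mtf1, the factor that drives Mt1 and Mt2 (-0.43, SE 0.13). None of 3 heat shock factor genes and none of 10 other HSP70 and HSP110 genes passed in edgeR. Of 15 other HSP40 genes Dnajc5 rose (0.35). Of 17 genes of HSP90 and its cochaperones, 0 rose and 4 fell, namely Hspbp1 (-0.48), Ahsa1 (-0.47), Chordc1 (-0.44) and Stip1 (-0.37). Of 10 chaperonin and collagen chaperone genes Hspd1 (-0.41) and Hspe1 (-0.34), the mitochondrial chaperonin and its lid, fell. Of 6 other small heat shock genes Hspb6 rose (0.83).

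All 10 low oxygen genes rose, with a median of 2.17, led by the mTOR inhibitor Ddit4 (3.21, SE 0.27), Ndrg1 (3.10, SE 0.21), the oxygen sensor Egln3 (2.54, SE 0.20) and the carbonic anhydrase Car9 (2.36, SE 0.30). This list is not independent evidence of its direction, since it was written with results of these cells known. Of 10 genes of the unfolded protein response, Chac1 (4.64, SE 0.55) and Ddit3 (1.72, SE 0.33) rose. Of 15 immediate early genes Atf3 (1.13) and Zfp36 (0.73) rose. Of 9 oxidative stress genes Hmox1, which breaks down heme, rose (1.5, SE 0.16). Of 5 glucocorticoid response genes Nr3c1, the receptor itself, rose (0.79). At E8.0 none of the genes of these lists passed in edgeR. In the change of the genotype difference from E8.0 to E9.5, 9 of the 10 low oxygen genes and Chac1 passed on the higher side, where 0.425% of 17872 genes lay.

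In erythroid-marker cells at E9.5 the fit over all genes, chosen after seeing the data, called 19 of 10859 genes (0.175%). It called 0 of 112 list genes in edgeR. Under an unadjusted p of 0.05 lay 22 list genes (19.6%), beside 10.2% of all genes. Among them were 7 of 13 immediate early and dissociation genes and 5 of 9 low oxygen genes, all higher in mutants. Of 9 unfolded protein response genes 3 were higher and 1 lower. The lists of heat shock factors, other HSP70 and HSP110, other small heat shock genes, chaperonins and glucocorticoid response held 0. The part of dissociation was not tested. DESeq2 called 2 list genes, beside 47 genes in all (0.433%). Without mutant Bar20 the fit called 583 genes, 14 of them on the lists, and without Bar10 it called 1 gene. Between stages within run 1, 15.0% of all genes fell and 14.7% rose. Of 17 genes of HSP90 and its cochaperones 9 fell and 0 rose, led by Chordc1 (-0.50) and Bag3 (-0.45). Of the chaperonin list 8 of 10 fell and 0 rose, Hspd1 by most (-0.45), and of other HSP40 genes 7 fell and 2 rose of 15.

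The genes most like each member over the 19 samples, among 10325 with a mean of at least 5 CPM, are named as a description. Mt1 was closest to Mt2 (Pearson 0.99), Hspa1a and 2410006H16Rik (0.93 each), and Mt2 also to Mapk1ip1 (0.90). Hspa1b was closest to Hspa1a (0.99) and 2410006H16Rik (0.92). Hspb1 was closest to Cox6a2 (0.96), Cavin3 (0.94) and Ckb (0.93). Hsph1 was closest to Cpsf2 (0.99), Prpf3 (0.98) and Rtca (0.98), Hspa8 to Ino80e (0.92), Rcc1 (0.88) and Srrt (0.86), and Dnajb1 to Dkk1 (0.81), Ripk2 (0.80) and Pik3c2a (0.76). Among the members, Hsph1 and Hspa8 correlated at 0.80, and each of them ran against Mt1, at -0.68 and -0.65. These correlations are across samples that differ in stage, run and genotype and are given as descriptions.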

How the data were processed

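Single-cell RNA was counted in 14777 sorted cells of 22 MULTI-seq barcode samples. The deposited matrix holds UMI counts per gene and cell, made by the authors. The submitters' processing notes name kallisto, bustools 0.46.1, Cell Ranger and build GRCm38, without their roles, and the cell filters are not given in the sources used here. Counts were summed per barcode sample, and per sample and marker class with at least 20 cells. Each class needed UMIs of most of its markers, and cells positive for several classes (806) stayed out of class sums. No doublet caller was run.

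CPM were computed from the deposited counts, with no filter. Tests used edgeR 4.0.16 (R 4.3.3): filterByExpr, TMM factors, the quasi-likelihood F test and Benjamini-Hochberg adjustment over all genes, with a threshold of 0.05. The SE was taken as the absolute log2 fold change over the square root of F. E8.0 compared genotypes alone. It was planned as a test of the members and is given as a description, because its values enter a comparison that chose them. E9.5 had run as a term, the stage comparison used run 1 with genotype as a term, and the change of the genotype effect used both stages with run. Alternatives were DESeq2 1.42.0, relative log expression factors, no filter, no blood-positive cells, no samples under 20 cells and each sample left out. The fits were also run on simulated counts with the same spread for every gene and no run or sample differences. Such counts cannot show how the fits behave for members that vary as much as Mt1. Shares of cells with a UMI were repeated after thinning cells to 5000 UMIs, which left out 365 of 9852 control and 82 of 4925 mutant cells. Intervals are exact Poisson at 95% and cover counting error only. Tables and figures were made with Python 3.11.15.

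Members and lists were chosen with earlier results of these data known. In each comparison the members past the threshold are named, and the others only in part. Of each list up to 4 genes past the threshold in each direction are named, by size. For each member the 3 genes most correlated in log2(CPM + 1) over samples of at least 50 cells were taken. The erythroid contrast, the erythroid fit over all genes and the pairs of heat shock units were chosen after seeing the data.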

Additional observations from a re-analysis of the deposited data

Results flagged for a closer look

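Of 32 groups of 4 to 10 samples, 7 held a sample whose gap to its nearest neighbour was large for the range of the group. The groups share samples and correlated genes, so this count cannot be set against chance. In whole E9.5 control samples Bar6, with 6 cells, stood above the rest for Mt1 (1792 CPM), Mt2 (283 CPM) and Hspa1a (22.3 CPM, from 3 UMIs). Of its 6 cells 33.3% were blood-positive. Among whole E9.5 mutants Bar5, with 57 cells, stood above the rest for Mt1 (6163 CPM) and Mt2 (834 CPM). In erythroid-marker cells of E9.5 controls Bar22 stood above the rest for Mt1 (1170 CPM) and Mt2 (324 CPM), and it had no Hspa1a UMI there, which allows up to 0.746 CPM.

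The genotype effect on Hspa1a differed between E9.5 and E8.0 by 5.24 on the log2 scale, the comparison by which the gene was chosen.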

How the results depend on the processing

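The number of members past the threshold at E8.0 was 0 under every alternative, also with each sample left out (0 to 0). All genes past it numbered from 1 (without Bar24 or Bar27) to 45 (DESeq2). At E9.5 the members past it numbered 0 in run 3 alone, beside 58 of 11111 genes, where Hspa1a was too low to be fitted. With 1 sample left out they numbered 2 to 6, beside 603 (without Bar23) to 2353 genes (without Bar20). For the change between stages of the genotype effect the members numbered 5 without a filter, beside 669 of 34851 genes. They numbered 3 with DESeq2 (395 of 17872 genes) and 2 without blood-positive cells (169 of 17111 genes). With 1 sample left out they numbered 0 to 2, beside 29 (without Bar25) to 137 genes (without Bar20). For stage the members numbered 7 with DESeq2 (5569 of 17577 genes) and without a filter (4776 of 34320 genes). Over all runs with run as a term they numbered 5, beside 3878 of 17872 genes (Mt1, at 2.22, no longer past it and Hspa1b, at 2.32, past it). They numbered 3 without blood-positive cells (5401 of 17021 genes). With 1 sample left out they numbered 2 to 6, beside 4177 (without Bar25) to 5542 genes (without Bar26). For run the members numbered 6 without a filter (4437 of 33688 genes) and 1 without blood-positive cells (3259 of 16331 genes). They numbered 1 without samples under 20 cells (3744 of 18058 genes). With 1 sample left out they numbered 1 to 4, beside 1566 (without Bar23) to 4041 genes (without Bar20). In erythroid cells the list genes called numbered 10 without a filter (192 of 24065 genes) and 2 with DESeq2 (47 of 10859 genes). With 1 sample left out they numbered 0 to 14, beside 1 (without Bar10) to 583 genes (without Bar20). The cause was not tested.

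Among the genotype and stage differences the sign turned for these. Hspa8 at E8.0 was 0.07 without Bar24 and 0.03 without Bar28 (range with 1 sample left out -0.35 to 0.07). Dnajb1 at E9.5 was -0.17 without blood-positive cells and -0.02 in run 3 alone, and its change between stages -0.05 without blood-positive cells. Dnajb1 by stage was 0.02, 0.03, 0.02 and 0.01 without Bar20, Bar22, Bar23 and Bar29 (range -0.13 to 0.03). Thinning took the E9.5 shares of cells with a UMI to 16.6% (Mt1, controls), 37.6% (Mt1, mutants), 5.16% (Mt2, controls), 0.439% (Hspa1a, controls) and 1.15% (Hspa1b, controls). No paired analysis was possible because the barcodes carry no replicate number that groups have in common. No E8.0 or run 1 sample had under 20 cells, so that alternative was not run there.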

Other observations

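The library labelled E7.5 control, Bar18 with 28 cells, entered no comparison, and its Wls was 14.1 CPM. It held 530 CPM of Mt1 (263 UMIs, exact Poisson 95% interval 468 to 598 CPM) and 123 CPM of Mt2 (94.0 to 158 CPM), and 67.9% of its cells were blood-positive. Without those cells its Mt1 was 49.8 CPM. It had 1 UMI of Hspa1a, and 32.2 CPM of Dnajb1, 78.5 CPM of Hsph1 and 399 CPM of Hspa8.

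The ratio of Hspa1a to Hspa1b UMIs was 0.46 to 0.692 in 4 E9.5 controls and 0.925 to 1.36 in 5 E9.5 mutants. Control Bar6, control Bar7 and mutant Bar8 had under 10 UMIs of Hspa1b and gave no ratio. At E8.0 the ratio was 0.426 to 0.958 in the controls and 0.472 to 0.875 in the mutants, and at E8.5 it was 0.411 in control Bar3 and 0.316 in mutant Bar1, so the ranges of E9.5 mutants and of controls at all stages overlapped. At E8.5 the cardiomyocyte level of Hspb1 was 1596 CPM in control Bar3 and 1322 CPM in mutant Bar1, and at E8.0 it was 158 and 398 CPM in controls and 182 to 457 CPM in mutants.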
